A study of Mus musculus with 8 samples.

Results

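The marking of RNA with N6-methyladenosine (m6A) was examined in 10 genes of the Notch pathway. These were the receptors Notch1, Notch2, Notch3 and Notch4, the ligands Jag1 and Jag2, and the target genes Hes1, Hey1, Hey2 and Heyl. They were taken from a list written by gene name, and their data are the m6A peak summits that fell in annotated exons of these genes (GENCODE M21, genome GRCm38). Of 42744 summits in 4 peak lists, 45 lay in exons of these genes, and 6 of the 10 genes had at least 1 summit. Across the annotation, 6075 of 55450 genes had an exonic summit in any list.

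The peaks come from m6A-RIP-seq, in which an antibody against m6A enriches marked RNA fragments (IP), which are sequenced beside unenriched fragments (input). The cells were primary mouse vascular smooth muscle cells (VSMCs) grown out of the descending aorta of adult C57BL/6J mice. In the shCTR group the cells had been transduced with virus that expressed a nontargeting short hairpin RNA, and in the shMettl14 group with virus that expressed a hairpin against Mettl14, a subunit of the complex that writes m6A into RNA. Of 8 samples, 4 were IP samples with a peak list each, replicates A and B of either group, and 4 were the inputs that served as background for them. All groups were wild-type cells in culture that carried a viral hairpin, and knockdown lowers a protein without removing it.

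Notch receptors are cleaved after they bind a ligand on a neighbouring cell, and the released intracellular part enters the nucleus, where it joins the DNA-binding protein Rbpj and switches on genes of the Hes and Hey families. Hes and Hey proteins are transcriptional repressors. In the artery wall Jag1 on endothelial and smooth muscle cells and Notch2 and Notch3 on smooth muscle cells set and maintain the contractile smooth muscle fate. The m6A mark is placed in a short sequence context, DRACH, in which the A is methylated, and is known to lie mostly near stop codons and in long last exons.

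Sequences are shown for 8 of the 14 sites, those that the comparisons below turn on, because they carry the adenosines that the complex could methylate. Neighbouring summits at most 100 nt apart were grouped into a site, whose values are those of its strongest summit in a list. The sequences are given 5′ to 3′ on the transcript strand, in GRCm38, as stretches of 101 bases around the median summit for sites in coding sequence and of 25 bases around a motif for sites in 3′ UTRs. Capitals mark DRACH (D stands for any base but C, R for a purine, H for any base but G).
Notch1 site 1, coding sequence, minus strand, chr2:26460538-26460638: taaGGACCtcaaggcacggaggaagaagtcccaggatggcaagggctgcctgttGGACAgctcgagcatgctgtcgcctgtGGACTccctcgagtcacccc
Notch2 site 3, 3′ UTR, plus strand, chr3:98147817-98147841: gagtgccccgGGACTctgtccaggc
Notch2 site 6, 3′ UTR, plus strand, chr3:98148563-98148587: ggggcacaggGGACCcagTGACTgc
Notch2 site 7, 3′ UTR, plus strand, chr3:98149456-98149480: tctggtcactGGACCtaccccagac
Jag1 site 1, coding sequence, minus strand, chr2:137083115-137083215: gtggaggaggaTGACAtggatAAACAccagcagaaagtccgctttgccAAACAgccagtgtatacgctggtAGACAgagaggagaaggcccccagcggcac
Hes1 site 1, 3′ UTR, plus strand, chr16:30067473-30067497: ctcttctgacGGACActaaaaacga
Hey2 site 1, 3′ UTR, minus strand, chr10:30833663-30833687: aatcagcttcAAACCtctgcatcct
Hey2 site 2, 3′ UTR, minus strand, chr10:30833371-30833395: gggagaagaaAAACAatgccatgtt

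The Notch1 stretch held 3 GGAC motifs, the most common form of DRACH under m6A peaks. The Jag1 stretch held 4 DRACH motifs and no GGAC, and the A of one AAACA stood at the median summit itself. The nearest GGAC to the median summit was 65 nt away in Jag1, 77 nt in Hey2 site 1 and 369 nt in Hey2 site 2, against 38 nt in Hes1 and 6 nt in Notch1 site 1. In the 3′ UTR stretches a GGAC within 50 nt of the median summit was shown even where another DRACH lay nearer. The GGAC shown was 38 nt from the median summit in Hes1, 24 nt in Notch2 site 3 and 34 nt in Notch2 site 7. The nearest DRACH was 23, 9 and 7 nt away, in the same order. The stretches shown for these sites hold none of their summits. A motif match is a description of the letters and not evidence that this base is methylated.

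The depth behind each value was small. The median pileup, that is the number of overlapping IP fragments at a summit, was 16 in either shCTR list and 14 and 13 in the shMettl14 lists A and B, and the smallest in any list was 3. The shCTR lists held 11158 and 8655 summits (A and B) and the shMettl14 lists 13675 and 9256, an order kept for values given in pairs below. Peaks do not measure transcript level, and none of the lists had a summit in an exon of Mettl14, so the knockdown was not checked here. Summits lay in 4 of 12 smooth muscle marker genes (Myh11, Lmod1, Cald1 and Itga8; Acta2, Tagln and Cnn1, which define the contractile cell, had none) and in 6 of 10 endothelial markers, with Pecam1, Cdh5, Flt1 and Erg in all 4 lists and Tek, Tie1, Vwf and Emcn in none. They also lay in 2 of 8 fibroblast and 1 of 8 macrophage markers. The summed pileup of the endothelial markers was 424 and 435 in the shCTR lists and 420 and 365 in the shMettl14 lists, that of the smooth muscle markers 557 and 498 against 496 and 386. Per the study's methods the adventitia was digested off and the endothelium scraped away before the cells grew out. The part of other cell types in the Notch values, among them those of Jag1 and Notch1, which endothelial cells also express, was not tested.

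Notch1, Notch2, Jag1, Hes1 and Hey2 had summits in all 4 lists. Jag2 had a summit in both B lists, and Notch3, Notch4, Hey1 and Heyl had none in any list. Notch3 (ENSMUSG00000038146.8), the receptor typical of smooth muscle cells, thus had no listed peak although its transcript holds 45 GGAC motifs. Notch4 (ENSMUSG00000015468.14) holds 52, Hey1 (ENSMUSG00000040289.8) 10 and Heyl (ENSMUSG00000032744.4) 18. Of all 21584 gene symbols with a complete coding transcript, 16.1% had summits in all 4 lists and 74.5% had none. A gene without a listed peak has no value in these files, which is not a measured level of 0.

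All 45 summits lay in the last exon of their gene, 31 of them in the 3′ UTR and 14 in coding sequence. Among all summits in coding transcripts, 63.7% to 64.8% per list lay in the last exon and 29.8% to 32.2% in the 3′ UTR. The last exon makes up 32.4% of the Notch1 transcript, 41.0% of Notch2, 36.1% of Jag1, 30.7% of Jag2, 63.0% of Hes1 and 81.1% of Hey2. Within 200 nt of the stop codon lay 12 of the 45 summits, 3 of 12 and 2 of 10 in the shCTR lists and 4 of 13 and 3 of 10 in the shMettl14 lists. The shCTR lists averaged 22.5% ± 3.54 (SD, n = 2), the shMettl14 lists 30.4% ± 0.544 (SD, n = 2), and all coding transcripts 26.8% ± 0.0335 and 26.3% ± 1.21. Both shMettl14 lists were above both shCTR lists, by 7.88 percentage points between the means (exact two-sided permutation p = 0.333, the smallest that 2 lists per group allow). These shares rest on 2 to 4 summits per list, which share genes and sites.

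**Figure D1:**
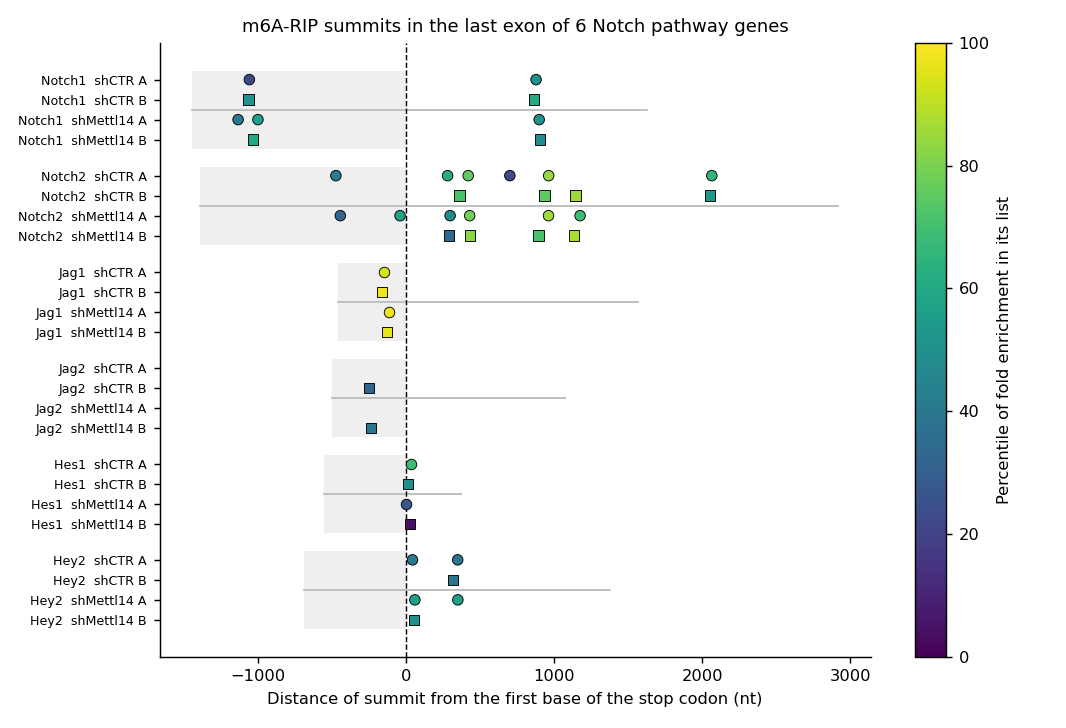
Distance of each summit from the first base of the stop codon (x axis, nt) for the 6 genes with summits, with a line per gene and peak list. The grey block is the coding part of the last exon, the thin line the whole last exon, circles are replicate A, squares replicate B, and the colour is the percentile of fold enrichment within the list. All 45 summits lie in the last exon, and the 4 Jag1 summits, between 160 and 110 nt before the stop codon, have the highest percentiles.

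**Figure D2:**
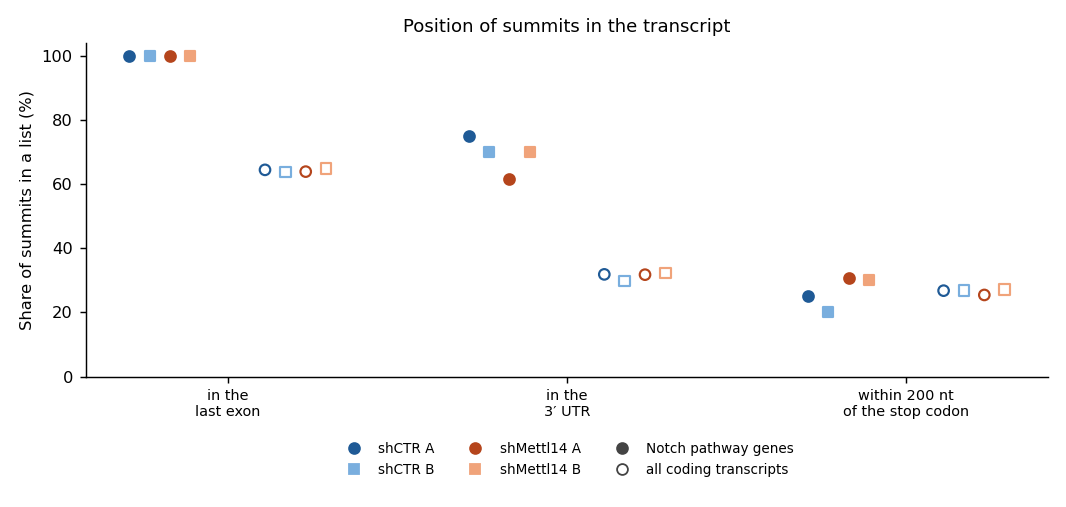
Share of summits (y axis, %) in the last exon, in the 3′ UTR and within 200 nt of the stop codon in each of the 4 lists. Filled symbols are summits in the 10 Notch pathway genes and open symbols all summits in coding transcripts. The Notch shares are 100% for the last exon in each list, against 63.7% to 64.8% for all coding transcripts.

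Of the 45 summits, 30 had a GGAC within 50 nt on the transcript strand and 44 had a DRACH, which 94.9% to 96.2% of all summits in coding transcripts per list had too. With GGAC the shCTR lists averaged 69.2% ± 15.3 (SD, n = 2) of summits, the shMettl14 lists 64.6% ± 6.53 (SD, n = 2), beside 57.5% ± 2.43 and 54.3% ± 2.65 for all summits in coding transcripts. Of all windows of the same length in the last exon, 37.5% held GGAC in Notch1, 34.1% in Notch2, 25.6% in Jag1, 58.7% in Jag2, 36.97% in Hes1 and 21.0% in Hey2.

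Among the receptors, Notch1 (ENSMUSG00000026923.15, chromosome 2, 26457903 to 26516663, minus strand) had 2 sites. Site 1 lay in coding sequence 1131 to 997 nt before the stop codon, at codons 2155 to 2199 of 2531, in the stretch that encodes the intracellular part of the receptor. Its fold enrichment over the local background was 5.85 and 8.15 in the shCTR lists, against 7.91 and 9.14 in the shMettl14 lists. Since lists differ in depth and background, each value was also placed among all summits of its list, which gave the 22.2nd and 51.2nd percentile in shCTR and the 56.1st and 59.8th in shMettl14. By this measure both shMettl14 lists were above both shCTR lists, shCTR A lay apart from the other 3, and the groups did not overlap. By rank among the regions shared by the 4 lists, a different measure, 17.0% of regions had both shMettl14 lists above both shCTR lists. This site was not among them, since its rank there in shMettl14 A lay between those of the shCTR lists. The pileups were 20 and 20 fragments in shCTR and 20 and 13 in shMettl14, so the order by enrichment was not one of IP fragments.

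Notch1 site 2 lay 866 to 905 nt beyond the stop codon's first base, within the 3′ UTR. The percentiles there were 49.9 and 60.4 in shCTR and 51.0 and 48.0 in shMettl14, with pileups of 17, 16, 12 and 11, and the groups overlapped in percentile. These summits also lie in an exon of 0610009E02Rik, a noncoding gene on the opposite strand, and peaks carry no strand, so the source of the fragments cannot be told apart.

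Notch2 (ENSMUSG00000027878.11, chromosome 3, 98013527 to 98150361, plus strand) had the most summits of the 10 genes, 6 and 4 in shCTR and again 6 and 4 in shMettl14, at 7 sites. Of the 3686 genes with summits in all 4 lists, 6.00% had a higher mean number. Sites 3, 5 and 6, 283 to 1177 nt downstream of the stop codon's first base, held its strongest summits. Site 3 stood at the 75.4th and 71.5th percentile in shCTR and the 78.7th and 82.8th in shMettl14. Site 5 stood at 84.4 and 75.01 in shCTR and 86.2 and 71.3 in shMettl14. Site 6 had no summit of its own in shCTR A, where a single interval spans sites 3 to 6, and stood at 85.5 in shCTR B and at 68.7 and 87.3 in shMettl14. Site 3 was higher in both shMettl14 lists, whereas sites 5 and 6 overlapped between the groups, and the region that holds these sites overlapped in rank. Its pileups were 25 and 22 in shCTR and 22 and 19 in shMettl14 at site 3, so the order by percentile was not one of IP fragments. Of all regions shared by the 4 lists, 17.0% had both shMettl14 ranks above both shCTR ranks, a share counted over regions and not sites.

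The other Notch2 sites were in fewer lists. Site 7, 2055 to 2066 nt downstream, was in both shCTR lists, with fold enrichments of 9.50 and 8.39 and pileups of 15 and 11, and in neither shMettl14 list. Of 11361 regions in all, 194 (1.71%) had this pattern and 203 (1.79%) the opposite one, and of the 10 regions of Notch pathway genes 1 and 0. Both pileups of site 7 were below the median of 16 in their lists. Site 1, in coding sequence, was in both A lists at pileups of 16 and 13, site 2 in shMettl14 A alone at a pileup of 18, and site 4 in shCTR A alone at a pileup of 11.

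Of the ligands, Jag1 (ENSMUSG00000027276.7, chromosome 2, 137081456 to 137116644, minus strand) carried the strongest peak of the 10 genes. It was a single summit per list in coding sequence, 160 to 110 nt before the stop codon, at codons 1165 to 1182 of 1218, in the stretch that encodes the cytoplasmic tail of the ligand. Fold enrichment reached 16.6 and 21.3 in shCTR and 17.6 and 19.5 in shMettl14. The percentiles were 93.2 and 97.6 against 96.9 and 96.1, so both shMettl14 lists lay between the shCTR lists. Of the 3686 genes with summits in all 4 lists, 6.35% had a higher percentile of the strongest summit. The pileups were 99, 84, 72 and 65 fragments. Over the median of all shared regions of its list, the Jag1 pileup was 4.30 and 4.00 in shCTR and 3.60 and 4.06 in shMettl14, which overlap.

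Jag2 (ENSMUSG00000002799.6, chromosome 12, 112907819 to 112929776, minus strand) had a weak coding site 245 to 231 nt before the stop codon. It was in shCTR B at a pileup of 8 and the 31.9th percentile and in shMettl14 B at a pileup of 7 and the 39.9th percentile. Neither A list held it, and neither of the interval files that the authors made from the overlap of replicates did.

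**Figure D3:**
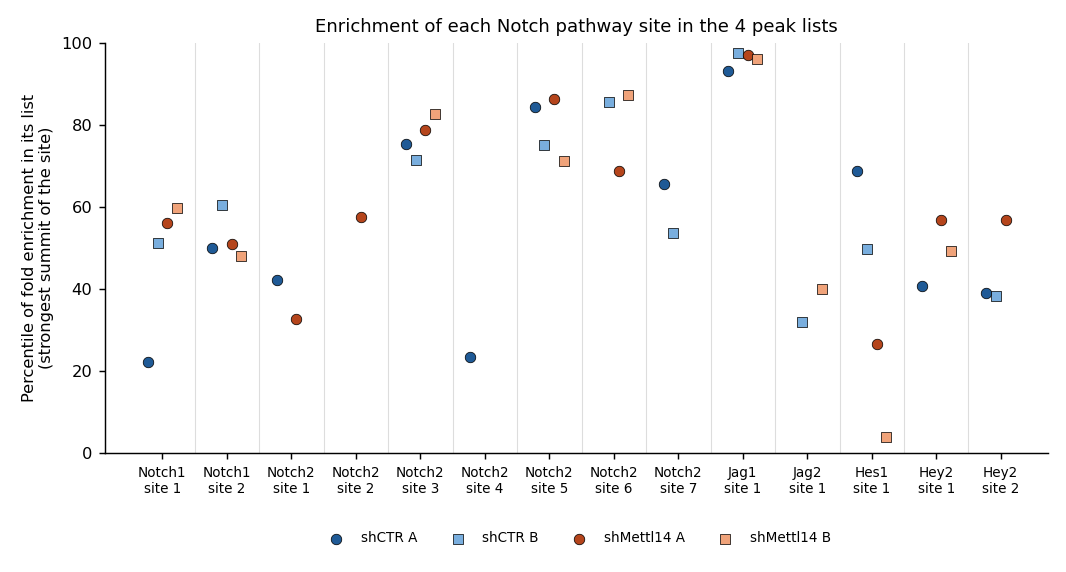
Percentile of fold enrichment within the list (y axis) for the strongest summit of each of the 14 sites (x axis) in the 4 lists, with shCTR in blue and shMettl14 in orange. Missing points are lists without a summit at the site. Jag1 stands between 93.2 and 97.6 in the 4 lists, and Hes1 spans 68.8 to 4.02 with both shMettl14 lists below both shCTR lists.

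Among the target genes, Hes1 (ENSMUSG00000022528.8, chromosome 16, 30064384 to 30067796, plus strand) showed a lone summit in each list, 3 to 39 nt beyond the stop codon's first base, where the 3′ UTR begins. Its fold enrichment was 9.99 and 8.002 in shCTR, but 5.85 and 4.31 in shMettl14. The percentiles were 68.8 and 49.7 in shCTR and 26.7 and 4.02 in shMettl14. Both shMettl14 lists were thus lower than both shCTR lists. Of all regions shared by the 4 lists, 15.8% had both shMettl14 ranks below both shCTR ranks. The shCTR lists averaged 59.2 ± 13.5 (SD, n = 2), the shMettl14 lists 15.4 ± 16.1 (SD, n = 2), a difference of −43.9 percentile points that was larger than the SD of either group. The exact two-sided permutation test over the lists gave p = 0.333, the smallest value that 2 lists per group allow.

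The shCTR lists had IP pileups of 30 (95% Poisson interval 20.2 to 42.8) and 19 fragments (11.4 to 29.7) at Hes1. The shMettl14 lists had 11 (5.49 to 19.7) and 6 (2.20 to 13.1). These intervals cover counting error only. Over the median of the shared regions of its list, the pileup was 1.30 and 0.905 in shCTR and 0.550 and 0.375 in shMettl14. The local background at the same summit was also lower, at 1.86 and 1.45 times the list median in shCTR and 1.17 and 1.01 times in shMettl14. In Jag1 it was 4.43 and 2.91 times in shCTR and 3.50 and 3.83 times in shMettl14. The part that the background of Hes1 has in its enrichment was not tested. Within bulk RNA, fewer cells that express a gene and less of its RNA per cell cannot be told apart.

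**Figure D4:**
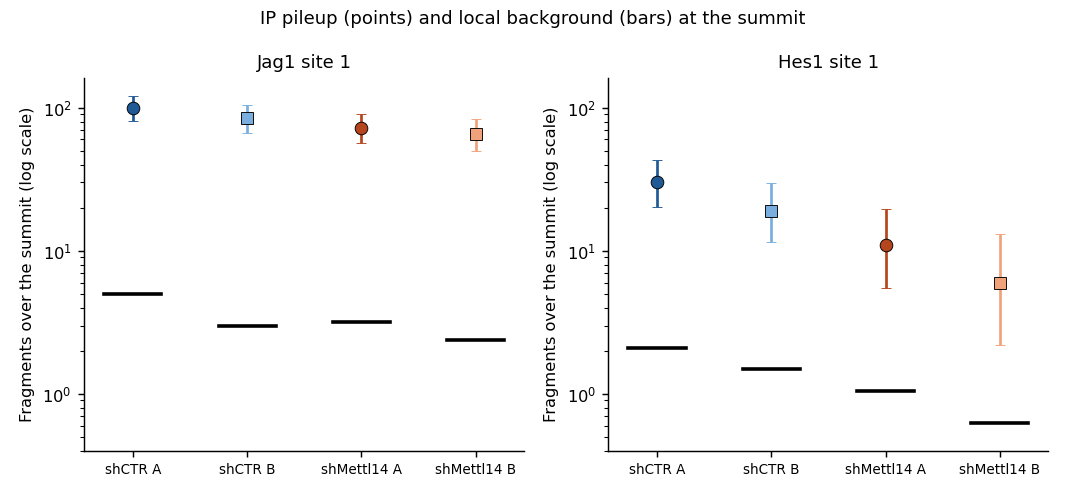
IP fragments over the summit (points, y axis on a log scale, with 95% Poisson intervals of counting error) and local background (black bars) in the 4 lists at Jag1 site 1 and Hes1 site 1. The Jag1 pileup is between 99 and 65 fragments, and the Hes1 pileup is 30 and 19 in shCTR and 11 and 6 in shMettl14, with a background that is also lower in shMettl14.

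Hey2 (ENSMUSG00000019789.9, chromosome 10, 30832359 to 30842801, minus strand) had 2 sites in the 3′ UTR, each with a summit in 3 lists. In shCTR B and shMettl14 B 1 interval with 1 summit spanned both sites, so the site without a summit there still lay in a called peak. Site 1, 46 to 62 nt downstream of the stop codon's first base, stood at the 40.6th percentile in shCTR A against the 56.9th and 49.4th in shMettl14. Site 2, 320 to 352 nt downstream, stood at 39.0 and 38.2 in shCTR against 56.9 in shMettl14 A. Over the summits of the gene, shCTR lists averaged 39.0 ± 1.11 (SD, n = 2), shMettl14 lists 53.1 ± 5.32 (SD, n = 2). Both shMettl14 lists were higher (exact two-sided permutation p = 0.333, the smallest possible), the reverse of the order seen in Hes1. By pileup, which was 10 to 15 fragments, the groups overlapped. In both groups the overlap interval of the replicates held 1 of the 2 sites, site 2 for shCTR and site 1 for shMettl14.

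To ask whether any of these peaks changed in rank after Mettl14 knockdown, limma was run on 4929 regions that every list shared, after their fold enrichments had been replaced by the normal scores of their ranks in a list. Of the 10 regions with summits in the Notch pathway genes 6 were shared by all lists, in Notch1 (both sites), Notch2 (sites 3 to 6 as 1 region), Jag1, Hes1 and Hey2. A region took its highest fold enrichment in each list, which need not come from the same site. In Notch2 it came from site 5 in both A lists and from site 6 in both B lists. In Hey2 it came from site 1 in shCTR A and from site 2 in shCTR B. No region of the 4929 passed an adjusted p of 0.05 (0% called, lowest limma adjusted p 0.796), so none of the 6 did. At an unadjusted p of 0.05, 1 of the 6 regions, that of Hes1, was lower in shMettl14 and 0 were higher, beside 124 (2.52%) and 119 (2.41%) of all regions.

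The Hes1 region changed in score by −1.39 (SE 0.506), with an unadjusted p of 0.0115 and an adjusted p of 0.927 in limma. Of all regions, 0.690% changed by as much or more in that direction. The scores were −0.112 and −0.491 in shCTR and −1.33 and −2.05 in shMettl14. With the recovered pileups in place of ranks, the log2 change was −1.26 (SE 0.301), with an adjusted p of 0.993 in limma. The unadjusted limma p of the rank test was 0.0692 without shCTR A and 0.111 without shMettl14 B. In these fits 1 group is a lone list, assumed to vary like the lists of the other group. Fisher's exact test, named in the study's methods and here run on pileups summed over replicates, set 49 fragments in shCTR against 17 in shMettl14 and gave p = 0.00179 and an adjusted p of 1. The log2 ratio, scaled to the summed pileups of all shared regions, was −1.23. By this test 1.12% of all regions had an unadjusted p under 0.05 in that direction. That test sets these libraries, not the conditions, against each other. The study's methods took peaks as altered at a Fisher P under 0.05 with a log2 fold change above 1, and state no adjustment. Hes1 lay within these limits here. The study took its fold changes from MACS2, so the measures differ.

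The other 5 regions changed by less, relative to their error. The coding region of Notch1 had a change of 0.58 (SE 0.516), Hey2 one of 0.36 (SE 0.492), Jag1 one of 0.05 (SE 0.501), Notch2 one of 0.04 (SE 0.494) and the 3′ UTR region of Notch1 one of −0.16 (SE 0.497), and their limma adjusted p-values were 0.999. Hey2 was the only one of these 5 whose groups did not overlap, with both shMettl14 scores above both shCTR scores, and 17.0% of all regions showed this. Hes1 showed the reverse, as 15.8% of all regions did. The median change of the 6 regions was 0.05, beside 0.00 over all 4929.

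**Figure D5:**
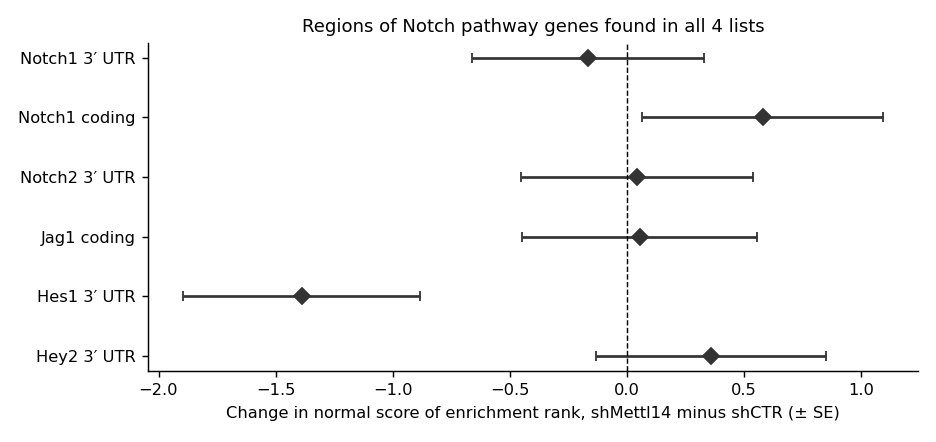
Change in the normal score of the enrichment rank, shMettl14 minus shCTR (x axis, points with SE), for the 6 regions of Notch pathway genes found in all 4 lists (y axis). Hes1, at −1.39, lies farthest from 0, and the SE bars of 4 of the other 5 cross 0.

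The number of summits differed between the groups by less than the SD of either group. Their mean percentile differed by less than the SD of shCTR (4.12), but by more than that of shMettl14 (0.682). A shCTR list held on average 11 ± 1.41 summits (SD, n = 2), a shMettl14 list 11.5 ± 2.12 (SD, n = 2), a ratio of 1.05 (exact two-sided permutation p = 1). The mean percentile of the summits was 55.6 and 61.5 in the shCTR lists and 58.2 and 57.3 in the shMettl14 lists, a difference of −0.81 between group means (exact two-sided permutation p = 1).

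Other genes of the pathway were read by role. Of 57 such genes, 21 had summits in all 4 lists, 7 in some and 29 in none. Among all genes with a complete coding transcript, 16.1% had summits in all 4 lists and 74.5% had none. The nuclear complex that reads or represses the Notch signal had 10 of 15 genes with summits in all 4 lists, the proteases that cut the receptor 5 of 10, the enzymes that glycosylate it 3 of 5, the other ligands 1 of 7 (Dll4), the turnover and endocytosis genes 2 of 15 and the other Hes genes 0 of 5. By the mean percentile of the strongest summit, the genes that stood highest were Spen, a corepressor partner of Rbpj, at 99.2, Fbxw7, the ubiquitin ligase subunit that marks cleaved Notch for degradation, at 99.0, the acetyltransferase Crebbp at 98.0, the coactivator Maml2 at 95.9 and the acetyltransferase Ep300 at 95.8. Jag1, at 95.96, lay in the range of these 5.

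These genes held 35 regions found in all 4 lists, of which 0 passed the adjusted limma test, 14 had a lower and 21 a higher score in shMettl14, with a median change of 0.08. Of all 4929 regions, 49.9% had a lower score, with a median change of 0.00. At an unadjusted p of 0.05, 1 was lower and 1 was higher, beside 2.52% and 2.41% of all regions, and both lay in Spen. The lower region had fold enrichments of 28.5 and 24.5 in shCTR and 13.6 and 21.5 in shMettl14, a change of −1.12 (SE 0.519, limma adjusted p 0.985), and the higher one 5.43 and 4.80 against 11.0 and 5.74, a change of 1.22 (SE 0.539, limma adjusted p 0.954). The pileups were 41 and 36 in shCTR and 37 and 36 in shMettl14 for the lower region, and 11 and 11 against 20 and 9 for the higher one. Over the median of the shared regions of its list, the pileup of the lower region was 1.78 and 1.71 in shCTR and 1.85 and 2.25 in shMettl14, the reverse of its order by enrichment, and that of the higher region 0.478 and 0.524 against 1 and 0.562.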

How the data were processed

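m6A-RIP-seq used RNA fragments of about 200 nt. Per the labels and methods, the authors mapped reads to mm10 with STAR, selected unique ones with SAMtools, and let MACS2 find peaks per IP sample over its input. Tool versions and MACS2 options are not given in the sources used here. The deposited lists give interval positions, the fold (ratio) of IP over local background, and −log10 p and −log10 q per summit, not counts, and 2 deposited files give the positions of replicate overlaps.

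From the ratio and −log10 p, the pileup and background of each summit were recovered with a tolerance of 0.001, which matched 100% of summits. BEDTools 2.31.1 assigned summits to exons. Intervals sharing 1 bp were merged into regions in Python and tested with limma 3.58.1 (lmFit, eBayes, Benjamini-Hochberg) in R 4.3.3, without a block. The test was checked on simulated data. Python 3.11.15, scipy 1.17.1 and GENCODE M21 were used, with the transcript of a gene that has the longest coding sequence. A loss of m6A shared by all sites leaves ranks in place. Groups came from the titles. Nothing states that replicates were separate cultures, so limma and permutation p-values measure only the spread between these lists. Fisher's p-values rest on pileups summed over replicates and measure counting error alone.

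The members and lists were chosen with earlier results of these data known. Each member is described. Other pathway genes are named with values where a region had an unadjusted p under 0.05 or the strongest summit was among the 6 highest, of which 1 is not reported here. The companion mRNA-seq was not analysed here.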

Additional observations from a re-analysis of the deposited data

How the results depend on the processing

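No Notch region passed the adjusted limma test under any alternative run (ranking by −log10 p, log2 pileup, equal numbers of top peaks, merging at 100 bp, Fisher's exact test on pileups, or leaving out any list, each 0 of the Notch regions), and 1 did at an unadjusted p of 0.05. Over all regions, leaving out shMettl14 A gave 3 calls, with the spread taken from the shCTR lists alone since shMettl14 B was then a lone list, and the other settings gave 0, while the number under an unadjusted p of 0.05, 243, was 126 by Fisher's exact test and 368 without shMettl14 B. Hes1 was lower in shMettl14 wherever it could be tested, but its unadjusted p was 0.0692 without shCTR A and 0.111 without shMettl14 B, and with equal numbers of top peaks it left the regions shared by all 4 lists. The replicate letters did not pair the samples (correlation of deviations 0.0795), and with the letter as a replicate block 0 Notch regions were called, with a limma adjusted p of 0.767 for Hes1 and 292 regions under an unadjusted p of 0.05 against 243. The ratio of Notch summits changed direction to 0.944 with distinct intervals, to 0.952 with equal numbers of top peaks, and ranged from 0.909 without shMettl14 A through 0.958 without shCTR B to 1.18 without single lists. The difference in mean percentile ranged from −3.73 to 2.10 without single lists (2.10 without shCTR B), stood at −0.81 within letters (replicate block), and was at most −3.63 in size among the other settings. The mean share of summits near the stop codon, 26.4%, was 17.4% within 100 nt and 47.0% within 400 nt, and 25.2% to 27.7% without single lists. The share with GGAC, 66.9%, was 29.1% within 25 nt, 87.0% within 100 nt, 98.1% for DRACH, and 61.5% to 72.3% without single lists. The differences between windows and motifs follow from their width and the looser motif. Pileups of 6 to 30 fragments limit the Hes1 values.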
